A study of Rattus norvegicus with 24 samples.

Results

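Compact cocaine sites are short groups of neighbouring INO80 peaks that lay more than 10 kb from other cocaine peaks and shared no base with a saline peak. They were chosen from the cocaine list on chromosomes 1 to 20 and X. Peaks were chained when the gap to the previous peak was at most 10000 bp, and chains of 2 to 9 peaks that spanned under 3000 bp and shared no base with a saline peak were kept. This gave 3158 sites with 8703 peaks, out of 71723 cocaine peaks in all and 71280 on these chromosomes, of which they make up 12.2%. All 8703 peaks were used and none was lost to a filter on low values.

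The libraries came from rat nucleus accumbens, the ventral part of the striatum and a hub of reward circuitry. The cocaine group consists of rats trained to self-administer cocaine, with tissue taken 30 days after extended access. The saline group is labelled as saline and carries the same protocol text. Strain, age and sex are not given in the sources used here. Each treatment had 3 numbered INO80 ChIP samples and 3 numbered inputs, each in 2 runs, and the labels do not say whether a numbered sample is 1 animal or a pool. The antibody amount was 7.5 µg per sample, the same in both treatments. The authors called peaks on the 3 ChIP samples of a treatment together, so there is 1 list per treatment, no replicate error, and no test between treatments.

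INO80 is the motor subunit of a large chromatin remodelling complex that burns ATP to slide nucleosomes and to exchange histone variants. It is known for setting the position of the nucleosomes that border open promoters and enhancers, and it also acts at replication forks and DNA breaks. An open element flanked by nucleosomes can give several close maxima in a ChIP profile, which makes the distance between neighbouring summits and the height of one relative to the other the basic description of a compact site. Chromatin of all cell types of the tissue was pooled, and more occupied cells cannot be told apart from more INO80 per cell. Neither list names genes, the genome build of the files is rn6, and the gene and promoter tables at hand are of another assembly. Gene names, gene parts and base sequences of the sites were therefore not analysed here.

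The absence of a saline peak is part of how the sites were chosen and is not a finding. Before that condition there were 3241 compact chains, and 3158 of them shared no base with a saline peak (97.4%). Over all 16990 cocaine chains of any size the share was 97.0%. The ChIP pools held 43489910 tags for cocaine and 37905014 for saline after filtering, and the inputs 101490635 and 100697179. Most of the sites lay far from any saline peak, with a median distance of 2051 kb (95% interval 1955 to 2208). The saline list formed only 677 chains, and other cocaine chains were not measured beside the sites. This distance is therefore not a trait particular to them. A saline peak lay within 10 kb of 11 sites and within 1 kb of 3 sites, the nearest at 105 bp. The peaks of those 11 sites stood on deep input, whose local level had a median of 15.1 times the genome-wide background, against 1.09 times for all peaks of compact sites. The part of deep input in those 11 cases was not tested.

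Pairs were the commonest form. Sites of 2 peaks numbered 1835 (58.1% of 3158, Wilson 95% interval 56.4 to 59.8), sites of 3 peaks 724 (22.9%, 21.5 to 24.4) and sites of 4 peaks 326 (10.3%, 9.31 to 11.4). Sites of 5 peaks numbered 154, sites of 6 peaks 70, sites of 7 peaks 28, sites of 8 peaks 18 and sites of 9 peaks 3. Larger groups were thus progressively rarer, and chains under 3000 bp with more than 9 peaks and no saline peak came to 1, with 10 peaks. The span limit bears on this, since the median span was 651 bp with 2 peaks and 2285 bp with 6 to 9. Chains of 2 to 9 peaks without a saline peak that reached 3000 bp or more numbered 4364, with 20285 peaks. The rarity of large groups is therefore no separate result. The median span was 988 bp (952 to 1028), with quartiles of 527 and 1741 bp, and 1597 sites (50.6%, 48.8 to 52.3) spanned under 1000 bp. The sites together spanned 3.76 Mb, of which called peaks covered 32.3%. Intervals here and below cover counting error alone, and peaks of 1 site are not independent of each other.

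Neighbouring summits were most often under 500 bp apart (61.6% of pairs, 60.3 to 62.8). Over the 5545 neighbouring pairs the median distance between summits was 389 bp (381 to 401), with quartiles of 236 and 722 bp and a range from 82 to 2911 bp. Distances from 100 to under 400 bp made up 51.0% of pairs (49.7 to 52.4), against 35.1% of all neighbouring pairs under 3000 bp in the cocaine list. The most filled 100 bp class was 200 to 299 bp, with 1065 pairs (19.2%, 18.2 to 20.3), followed by 100 to 199 bp with 964 (17.4%, 16.4 to 18.4) and the class starting at 300 bp with 801 (14.4%, 13.5 to 15.4). Above that the classes thinned out, to 129 pairs at 1000 to 1099 bp and 28 at 2000 to 2099 bp, and where a class held more pairs than the one before it, their intervals overlapped. Under 100 bp there were 6 pairs. The caller bounds this distance from below: the shortest peak is as long as its fragment length, 54 bp, and the smallest gap between neighbours was 53 bp.

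**Figure D1:**
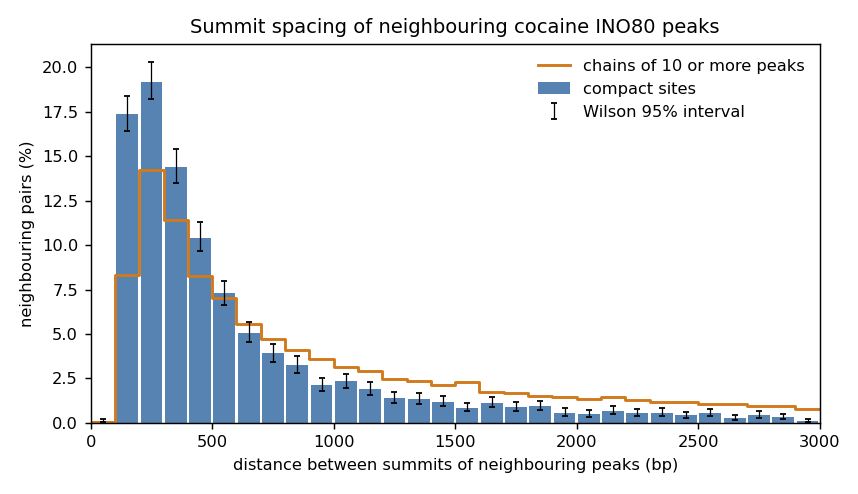
Distance between the summits of neighbouring peaks in classes of 100 bp (x axis, bp) against the share of neighbouring pairs (y axis, %), with bars and Wilson 95% intervals for the 5545 pairs of compact sites and a line for 23849 pairs in chains of 10 or more peaks without a saline peak. Both peak at 200 to 299 bp, with 19.2% and 14.2% of pairs.

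The spacing of compact sites was shorter than in dense cocaine chains, and the rule fixes part of this gap. In the 1768 chains of 10 or more peaks without a saline peak, pairs under 3000 bp had a median spacing of 611 bp (602 to 623). A span limit of 3000 bp removes long distances from compact sites and leaves them in dense chains, so the lower median is no separate result. The commonest class, 200 to 299 bp, was the same in both, with 14.2% of pairs (13.8 to 14.7) in dense chains. Spacing also narrowed with the number of peaks that had to fit into the span. The median was 490 bp (460 to 527) in sites of 2 peaks, 412 (386 to 429) with 3, 360 (347 to 384) with 4, 344 (329 to 364) with 5 and 308 (285 to 330) with 6 to 9 peaks.

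Spacing inside a site varied. In the 724 sites of 3 peaks, the smaller of the 2 distances had a median of 264 bp (251 to 283) and the larger 599 bp (567 to 642). The ratio of smaller to larger had a median of 0.518 (0.483 to 0.541), with quartiles of 0.314 and 0.711. Nearly equal distances, with a ratio of 0.8 or more, were found in 125 of these sites (17.3%, 14.7 to 20.2). The distances were ordered by size before the ratio was taken, which makes them unequal by construction, so the ratio only describes these sites.

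Neighbours in a compact site were seldom of equal height. Height is the deposited pileup, the count of ChIP fragments that overlap at the summit, and the balance of a pair is the lower pileup over the higher. Across the 5545 pairs the median balance was 0.731 (0.722 to 0.739), with quartiles of 0.571 and 0.868. A balance of 0.8 or more was found in 38.7% of pairs (37.4 to 40.0), against 40.5% of all neighbouring cocaine pairs under 3000 bp. A balance of 0.5 or less was found in 17.7% (16.7 to 18.7), against 15.1% of all such pairs. Equal pileups were found in 5.66% (5.08 to 6.30). The even share was thus near that of the whole list, and the uneven share somewhat above it. For 4383 pairs (79.0%, 78.0 to 80.1) the exact binomial 95% interval of the lower peak's share of the pair's fragments reached equality. Counting error alone spans the difference in those pairs. The interval widens as counts fall, so this share is no measure of evenness, and other chains were not set beside it.

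Neither side of a pair was favoured beyond counting error. Of the 5231 unequal pairs, the peak at the higher coordinate was the taller in 48.9% (47.6 to 50.3). The files give no strand, so left and right follow chromosome coordinates only. In sites of 2 peaks the heights of left and right peak rose together across sites, with a Spearman correlation of 0.523 and a Pearson correlation of log2 pileups of 0.530 over 1835 sites. Both peaks come from the same pooled libraries and share the local input. Over the 1588 sites whose peaks both stood under 3 times the genome-wide background, the Spearman correlation was 0.437. The taller peak was also the longer in 1206 of 1676 sites with unequal height and length (72.0%, 69.8 to 74.1).

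**Figure D2:**
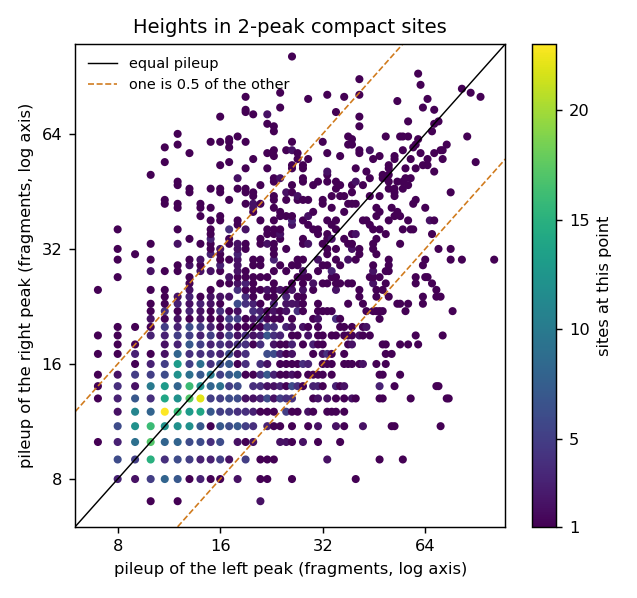
Pileup of the left peak (x axis, fragments, log axis) against pileup of the right peak (y axis, fragments, log axis) in the 1835 compact sites of 2 peaks, with colour for the number of sites at a point. Points lie on both sides of the line of equal pileup (Spearman correlation 0.523), and 17.9% of sites lie on or beyond the dashed lines where the lower pileup is 0.5 of the higher.

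Balance fell as the pileup of the taller peak rose, and that pileup is also the divisor of balance. With a taller peak of 7 to 15 fragments the median balance was 0.857 (0.846 to 0.867, 1256 pairs), and it was 0.722 (0.714 to 0.737, 2426 pairs) with 16 to 30 fragments. With 31 to 60 fragments it was 0.600 (0.585 to 0.613, 1473 pairs), and with 61 to 108 fragments 0.552 (0.515 to 0.588, 390 pairs). The measure and the calling limit build in a fall of this kind, since the lowest pileup of any member was 7 fragments. Choosing pairs by a tall peak favours a lower neighbour, so the gradient is no separate result. In the upper height classes the neighbours of tall peaks were lower in compact sites than in dense chains. With a taller peak of 31 to 60 fragments the median balance in dense chains was 0.659 (0.655 to 0.667), and with 61 to 108 fragments it was 0.641 (0.619 to 0.662). The intervals of compact and dense pairs did not overlap in these upper classes, and the difference itself was not tested. Among pairs under 3 times the genome-wide background the medians with 31 to 60 fragments were 0.585 (0.571 to 0.600) and 0.656 (0.647 to 0.659). With 61 to 108 fragments only 38 of the 390 compact pairs were under that level, so most pairs of this class stood on deeper input. Their median balance was 0.402 (0.311 to 0.515) in these 38 pairs and 0.587 (0.531 to 0.629) in 262 such dense pairs. With small taller peaks, of 7 to 15 fragments, both kinds of chain had a median of 0.857. Wider chains without a saline peak, of 2 to 9 peaks over 3000 bp or more, were not placed in these height classes. Over all heights their 10228 pairs under 3000 bp had a median balance of 0.750. It was 0.731 in compact sites and 0.737 in dense chains. The lower neighbours of tall peaks are thus not shown to be particular to compact sites.

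**Figure D3:**
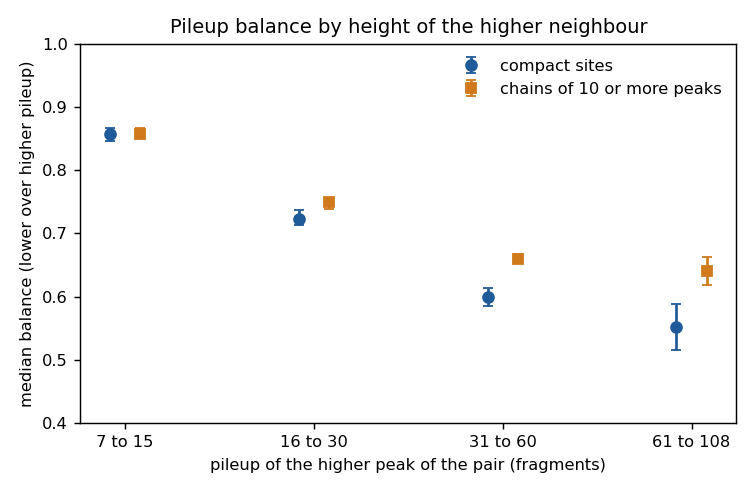
Median balance of neighbouring pairs (y axis, lower over higher pileup, axis from 0.4) by the pileup of the taller peak (x axis, fragments), for compact sites and for chains of 10 or more peaks without a saline peak, with 95% intervals of the median. Balance falls from 0.857 to 0.552 in compact sites and from 0.857 to 0.641 in the longer chains. The pileup on the x axis is also the divisor of balance, which builds in a fall.

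Near and far neighbours were also compared. Pairs under 500 bp apart had a median balance of 0.731 (0.722 to 0.747, 3414 pairs), and pairs 1500 bp or more apart 0.786 (0.750 to 0.812, 484 pairs). The far pairs were also lower, with a median pileup of 18 (17 to 19) at the taller and 13 (12 to 13) at the smaller peak, against 24 (24 to 25) and 16 (16 to 16) in near pairs. At matched height of the taller peak, the intervals of near and far pairs overlapped. With 16 to 30 fragments the median balance was 0.750 (0.727 to 0.750) under 500 bp and 0.706 (0.688 to 0.737) at 1000 bp or more. With 31 to 60 fragments it was 0.598 (0.583 to 0.615) and 0.588 (0.527 to 0.622).

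Sites with more peaks contained taller peaks. The median pileup of the tallest peak was 21 (20 to 22) in sites of 2 peaks, 26 (24 to 27) with 3, 30 (28 to 32) with 4, 31 (28 to 35) with 5 and 36 (31 to 42) with 6 to 9. The largest of more values is higher by construction, but the median over all peaks rose as well, from 17 (16 to 17) in sites of 2 to 21 (20 to 22) in sites of 6 to 9. The lowest peak stayed at a median of 14 or 13 in every size class. A member with a fold of 10 or more over local input was present in 645 of the 1835 sites of 2 peaks (35.1%, 33.0 to 37.4). The same held for 92 of the 119 sites of 6 to 9 peaks (77.3%, 69.0 to 83.9). More peaks give more chances to reach that fold, so this share also rises by construction. Over all peaks the median fold was 6.90 (6.90 to 7.00) in sites of 2. In sites of 6 to 9 it was 7.81 (7.36 to 7.99). Local background was somewhat deeper in the large sites, with a median of 1.46 times the genome-wide level against 1.09 in sites of 2, and its part in the heights was not tested.

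**Figure D4:**
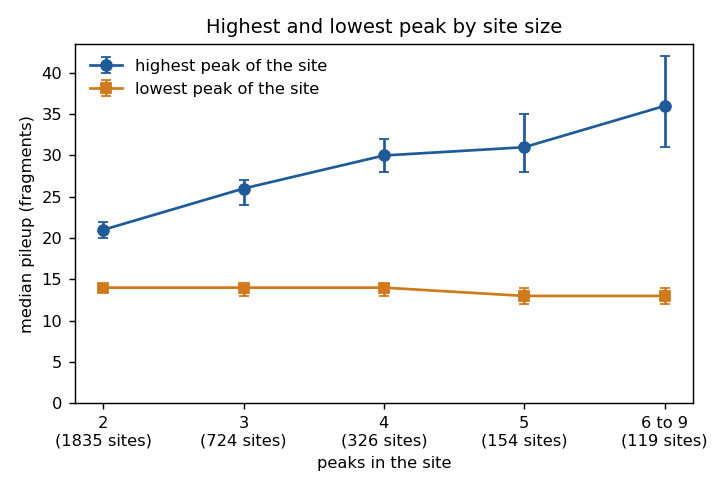
Median pileup (y axis, fragments) of the tallest and of the lowest peak of a compact site by the number of peaks in the site (x axis), with 95% intervals of the median. The tallest peak rises from 21 to 36 fragments while the lowest lies at 14 or 13.

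The tallest peak had no fixed place in the site. Among the 668 sites of 3 peaks with a single tallest peak, it was the middle one in 219 (32.8%, 29.3 to 36.4), where 33.3% of positions are inner ones. With 4 peaks it was an inner one in 160 of 308 sites (51.9%, 46.4 to 57.5), where 50% of positions are inner. With 5 peaks the count was 97 of 142 (68.3%, 60.3 to 75.4), where 60% of positions are inner. In sites of 3 and 4 peaks the share of inner positions lay inside the interval, and the lower bound for 5 peaks lay just above the share of inner positions. Median pileups by position in sites of 3 were 19, 19 and 18.

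Compared as a class, members of compact sites were close in height to peaks of wider chains (2 to 9 peaks over 3000 bp or more, with no saline base), taller and longer than solitary cocaine peaks, and somewhat lower than those of dense chains. At the 20285 peaks of the wider chains the median fold was 7.36 (7.36 to 7.36), the median pileup 17 and the median length 99 bp, and 23.9% (23.4 to 24.5) had a fold of 10 or more. The authors' fold had a median of 7.36 (7.28 to 7.36) at members, 6.44 (6.44 to 6.56) at the 7319 solitary peaks and 8.58 (8.47 to 8.68) at the 30528 peaks of dense chains. In the same order, the median pileups were 18, 15 and 20 and the median lengths 95, 81 and 112 bp. A fold of 10 or more was found in 24.2% of members (23.3 to 25.1), against 28.0% of all cocaine peaks on these chromosomes, 16.6% of solitary peaks (15.8 to 17.5) and 35.9% of peaks in dense chains (35.4 to 36.5). These are values of 1 pooled list, and the differences were not tested over animals. The rule used positions and not heights.

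Compact sites stood mostly on ordinary input. The lowest background the caller can assign, 1.17 fragments, was found at 3302 members (37.9%, 36.9 to 39.0). In 2611 sites (82.7%, 81.3 to 84.0) every peak was under 3 times that level, and 47 sites (1.49%, 1.12 to 1.97) had a peak at 10 times or more. Members at 10 times or more made up 0.873% (0.698 to 1.09), against 3.44% of all cocaine peaks. The share was lower in wider chains, at 0.394% (0.317 to 0.491), and in dense chains, at 0.0164% (0.00700 to 0.0383), and higher in solitary peaks, at 2.28% (1.96 to 2.65). Peaks under 3 times the genome-wide level made up 90.1% of members (89.4 to 90.7), below the 92.1% of solitary peaks, 95.6% of peaks in wider chains and 95.8% of those in dense chains. The rule that a site shares no base with saline bears on these shares, since the chains it removed stood on high input, and solitary peaks were taken with or without a saline base. The 83 compact chains that did share a base with a saline peak held 250 peaks, of which 60.4% (54.2 to 66.3) stood at 10 times or more. These peaks stood on input with a median of 13.5 times the genome-wide background (11.3 to 15.7), a median fold of 3.93 (3.53 to 4.25) and a median pileup of 59.5 (54 to 66). Their spacing had a median of 391 bp (334 to 480), against 389 bp at members, and their median balance was 0.826 (0.777 to 0.857) over 167 pairs. No member lay at the highest pileup the caller can give, 108 fragments, while 18 members had 100 fragments or more, up to 104.

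Members were set against the limits of the saline list in the same way as all cocaine peaks, and their shares were near those of all peaks. The smallest −log10 p in the saline list was 4.94, and 8586 of 8703 members passed it (98.7%, 98.4 to 98.9), against 98.8% of all cocaine peaks. With pileup and background scaled by 0.872 to the saline depth, 8178 members still passed (94.0%, 93.4 to 94.4), against 94.8% of all cocaine peaks. Every peak of the site passed at that depth in 2705 sites (85.7%, 84.4 to 86.8), and at least 2 peaks did in 2894. The scaling moves every peak alike and depth is known per pool only, and the part of depth in the absence of saline peaks was not tested.

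The sites of highest fold were mostly an isolated strong peak with a weak companion. The first, on chromosome 4 (98462023 to 98463136, rn6), had pileups of 19, 12 and 61 with summits 315 and 707 bp apart, and the tallest peak had a fold of 28.5. On chromosome 20 (28870808 to 28873386) pileups of 15 and 61 lay 2471 bp apart, with a fold of 27.1 at the taller. On chromosome 2 (198417403 to 198417992) pileups of 11 and 59 lay 338 bp apart, with a fold of 26.3 at the taller. These 3 sites were all uneven, with a balance between the strong peak and its neighbour of 0.197, 0.246 and 0.186. Ranking sites by the fold of their strongest member favours a lower neighbour, so this unevenness is no separate result. The site on chromosome 4 at 9939645 to 9940123 had pileups of 76 and 30 at 251 bp and folds of 24.5 and 11.2. That on chromosome 19 (49791896 to 49792569) was nearly even, with pileups of 65 and 55 at 514 bp and folds of 12.5 and 24.5, with deeper input under the taller peak.

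The sites with most peaks differed among themselves in height. On chromosome 16 (56826191 to 56828979) the pileups of 9 peaks were 43, 26, 46, 46, 68, 79, 34, 66 and 36, with spacings from 198 to 389 bp. On chromosome 17 (66239241 to 66241405) 9 peaks had pileups of 17, 15, 12, 21, 17, 15, 12, 23 and 15, with spacings from 161 to 345 bp. The first of these was thus tall and the second low at all 9 summits, with spacings of the same order. A further site of 9, on chromosome 7 (97920581 to 97923380), was low throughout, with pileups of 14, 12, 10, 17, 17, 14, 11, 11 and 9 and a gap of 905 bp between its sixth and seventh summits. The site of 8 on chromosome X (107632880 to 107635807) had pileups of 11, 20, 22, 54, 32, 50, 31 and 11, tallest inside and lowest at both ends. The site of 8 on chromosome 7 (117304800 to 117307749) had 28, 14, 55, 68, 74, 69, 63 and 70, with 6 tall peaks at one side and a background of up to 5.47 times the genome-wide level.

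**Figure D5:**
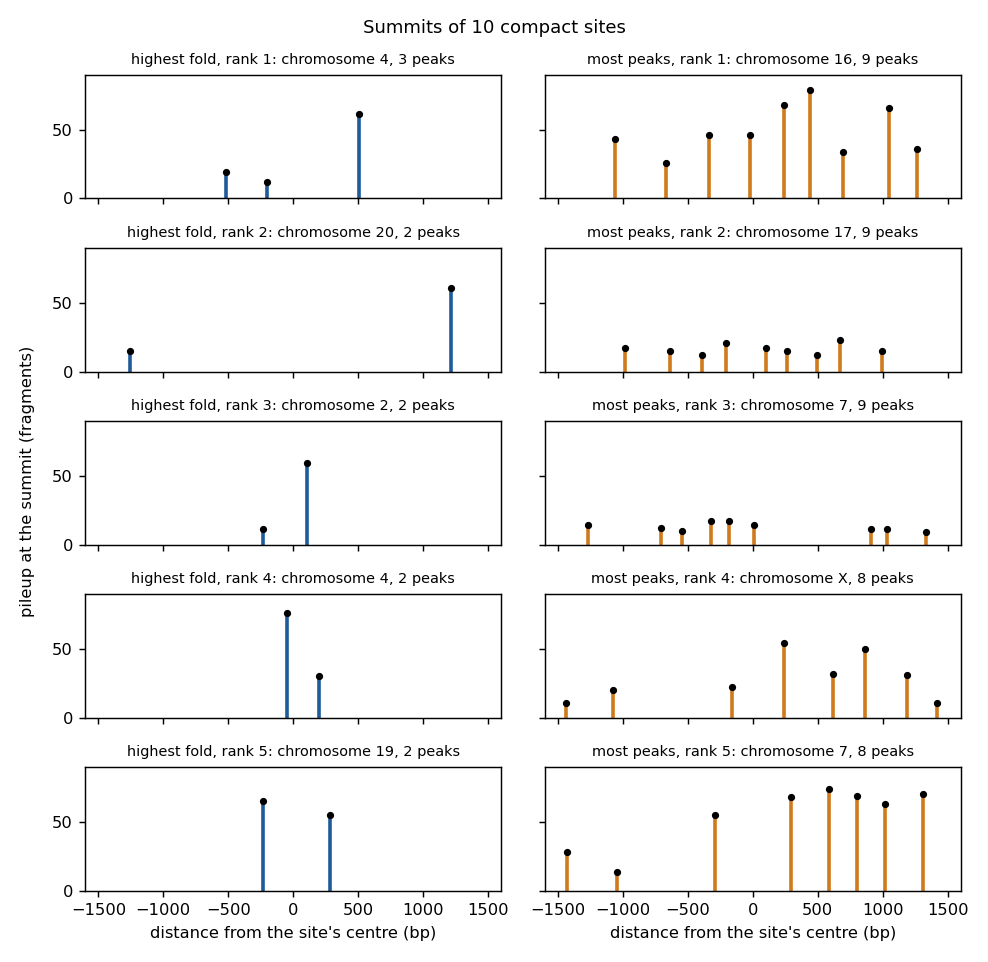
Summit positions (x axis, bp from the centre of the site) and pileups (y axis, fragments) of the 5 compact sites with the highest fold (left) and the 5 with most peaks (right). On the left, pileups of 61 stand beside 12 and 15 in the first 2 sites, while the chromosome 19 site has 65 beside 55. The sites of 9 on the right run from 26 to 79 on chromosome 16 and from 9 to 17 at the chromosome 7 site of 9 peaks.

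Among sites of 2 peaks, the least balanced joined a peak of over 50 fragments to a companion of 9 to 13 fragments. Pileups were 71 and 11 on chromosome 12 (41400285 to 41400998), with summits 578 bp apart and a balance of 0.155 (exact 95% interval from the counts, 0.0740 to 0.294). They were 55 and 9 on chromosome 18 (39171448 to 39173196), 75 and 13 on chromosome X (39387532 to 39387872) and 74 and 13 on chromosome 1 (25077521 to 25078109). The chromosome 2 site above, with 11 and 59, came next. These sites were picked for the lowest balances, and the interval covers counting error only, without allowing for that choice.

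Exactly equal pairs also existed at high pileup. Both peaks had 68 fragments on chromosome 10 (15927043 to 15928224, 1013 bp apart), 60 on chromosome 17 (84613760 to 84614081, 253 bp) and 59 on chromosome 5 (142735676 to 142736239, 385 bp). A site of 50 and 50 fragments on chromosome 9 (8554069 to 8554260) stood on input at 16.1 times the genome-wide level, with folds of 2.81 and 2.57. The site of 44 and 44 on chromosome 9 (88748712 to 88749580, 802 bp) stood near the lowest background, and both its peaks had a fold of 19.7. Equal pileup therefore came with very different folds. For the chromosome 10 site the counts allow a balance from 0.704 upwards.

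Pairs in which both peaks were strongest lay on deeper input than most members. The pileups were 82 and 84 on chromosome 1 (20115969 to 20116526, 397 bp apart), 87 and 82 on chromosome 1 (84811231 to 84812672, 490 bp) and 93 and 80 on chromosome 11 (24479978 to 24481561, 1429 bp). On chromosome 10 (83147292 to 83147598) they were 70 and 69, 240 bp apart, and the chromosome 10 site of 68 and 68 came last of the 5. The highest local background in these sites was 6.57, 9.12, 7.66, 7.30 and 3.65 times the genome-wide level. Its part in the heights was not tested.

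The closest summits were 82 bp apart on chromosome 5 (27912601 to 27913583, pileups of 14 and 17), 83 bp on chromosome X (153564193 to 153564383, 12 and 8) and 92 bp on chromosome 16 (85318640 to 85320156, 11 and 14). The farthest neighbours were 2911 bp apart on chromosome 4 (27450030 to 27453023, 11 and 12), 2910 bp on chromosome 1 (227681815 to 227684801, 14 and 20) and 2907 bp on chromosome 12 (37420661 to 37423621, 18 and 13). The closest pairs had pileups from 8 to 17 and the farthest from 11 to 20, against a median of 18 over all members. At the span limit, the 3 widest sites kept spanned 2999, 2998 and 2998 bp with pileups from 11 to 16. The 3 narrowest chains left out spanned 3000, 3001 and 3002 bp with pileups from 13 to 31.

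Some sites repeated another site's values almost exactly. Sites were matched when their pileups were identical in order and every summit distance and peak length differed by at most 5 bp, a limit chosen after the first such case was seen. This gave 28 matched pairs among 53 sites (1.68% of 3158, 1.29 to 2.19), with 28 pairs in the same order along the chromosome and 0 in reversed order. All distances and lengths were equal in 14 pairs. A site of 5 peaks on chromosome 5 (137458800 to 137460994) had pileups of 16, 18, 21, 20 and 19, and so did a site 209 kb away (137670273 to 137672470), with spacings of 122, 269, 734 and 989 bp at the first and 123, 272, 735 and 987 bp at the second. Sites of 3 on chromosome 4 (13040440 to 13041132 and 16748192 to 16748884) both had pileups of 22, 17 and 22 at spacings of 390 and 254 bp. On chromosome 12 3 sites had pileups of 16 and 13 at 1864 bp (starting at 7226060, 7462367 and 7502919). Of the pairs, 22 were on a single chromosome, 10.3 to 3707 kb apart, and 6 joined different chromosomes, such as chromosomes 8 (69646148) and 9 (3203970) with pileups of 46, 34 and 33. Local input at these sites was ordinary, with a median of 1.09 times the genome-wide background. Such sites cannot be counted as separate observations, and whether their sequences are copies of each other was not tested. Without them 3105 sites remained, with a median spacing of 389 bp and a median balance of 0.730.

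Chromosomes differed in how many compact sites they held and little in what the sites were like. Over chromosomes 1 to 20 and X there were 1.14 sites per Mb, taking the last peak end as the chromosome's length. Chromosomes 12 and 10 had the most, 1.75 and 1.72 per Mb, and chromosomes 13 and 2 the fewest, 0.799 and 0.893. The order followed that of all cocaine peaks in part, with a Spearman correlation of 0.643 over 21 chromosomes that share the same libraries. As a share of a chromosome's cocaine peaks, members made up 19.9% on chromosome X (18.5 to 21.4) and 17.5% on chromosome 18 (15.8 to 19.4), against 8.72% on chromosome 10 (8.04 to 9.45) and 9.37% on chromosome 1 (8.80 to 9.97). Median spacing ran from 337 to 449 bp, median balance from 0.696 to 0.778 and median fold from 6.90 to 7.82 across chromosomes.

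Compact sites lay more than 10 kb from other cocaine peaks, as the chaining requires of every chain. Distances between other kinds of chain were not measured, so the values below are not shown to be particular to compact sites. The median distance to the nearest other cocaine chain was 31.5 kb (29.9 to 33.3), with quartiles of 16.5 and 88.3 kb. That nearest chain was a solitary peak for 1273 sites (40.3%, 38.6 to 42.0) and a chain of 10 or more peaks for 332 (10.5%, 9.49 to 11.6). Solitary peaks are 43.1% and chains of 10 or more 11.3% of all cocaine chains, so neighbours of compact sites were of the common kinds.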

How the data were processed

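Per the file headers, the authors ran MACS 2.0.10.20131216 on the pooled ChIP alignments of each treatment against its pooled inputs, with a q cutoff of 0.05, 1 tag kept per position and fragment lengths of 54 bp (cocaine) and 52 bp (saline). Positions are on rn6, as the submitters' processing notes state, and no aligner is named in the sources used here. The pileup is a deposited signal, the number of ChIP fragments at the summit. The deposited fold is a ratio of pileup to scaled local input. The p-value and q-value are deposited as −log10 values of the caller's Poisson test. Positions and lengths in bp are used as deposited. Since each list pools 3 samples, depth per sample was not used and no test across samples was possible.

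From these values peaks were chained, neighbours were taken by summit position, and the local background was solved from the fold formula and expressed relative to the genome-wide level of 1.17 fragments. −log10 p recomputed from them differed from the deposited values by at most 5.65e-05. Medians carry order-statistic 95% intervals and shares Wilson 95% intervals. The chaining was tested on simulated data. Named regions stand in for genes, by this rule among compact sites: the 5 of highest fold, the 5 with most peaks, the 5 lowest and 5 highest balances and the 5 highest lower pileups of sites of 2, the 3 closest and 3 farthest summits, and 3 chains on each side of the span limit. The members and lists were chosen with earlier results of these data known. Alternatives changed the gap, the span, the saline condition, the peak threshold, the background, the measure and the depth. Python 3.11.15, numpy 2.4.6, pandas 2.3.3, scipy 1.17.1 and matplotlib 3.10.9 were used.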

Additional observations from a re-analysis of the deposited data

How the results depend on the processing

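No paired analysis was possible because each list pools the samples of a treatment, and for the same reason no replicate could be left out. The number of compact sites, 3158, became 5195 with a chaining gap of 5000 bp and 2092 with 20000 bp, and it lay between 2576 and 4070 under the other alternatives for which it was recomputed. Sites of exactly 2 peaks numbered 1835. The median summit spacing, 389 bp, was 431 and 359 bp with those gaps, 349 bp with a span under 2000 bp and 468 bp with a span under 5000 bp. It was 407 bp with peaks of fold 5 or more, 406 bp with all peaks under 3 times the genome-wide background and 490 bp in sites of exactly 2 peaks. It was 218 bp as edge-to-edge gap and 433 bp with 1 pair per site, an alternative chosen after seeing the data. The median balance, 0.731, was 0.719 with a gap of 20000 bp, 0.741 with a span under 5000 bp, 0.742 with fold 5 or more, 0.750 with low background, 0.744 in sites of 2, 0.753 from folds, 0.713 after subtracting background and 0.750 with 1 pair per site. The median fold, 7.36, was 7.82 with fold 5 or more and 7.00 with low background. The share past the smallest saline −log10 p, 98.7%, was 94.0% at the saline depth. Removing the sites with repeated values, also chosen after seeing the data, left 3105 sites with a median spacing of 389 bp, balance of 0.730 and fold of 7.36, and the share past the saline limit was not recomputed. Spacing is therefore tied to the gap and span that define a site.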

Other observations

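Chained in the same way, the saline list gave 677 chains, of which 85 were compact, with 234 peaks. Of these 85, 8 shared no base with a cocaine peak. Over all 85, neighbouring summits lay a median of 358 bp apart (299 to 396, 149 pairs), and the median balance was 0.857 (0.839 to 0.889). The saline compact chains stood on deep input, with a median local background of 16.4 times the genome-wide level (14.9 to 18.7), a median pileup of 52 (47 to 57) and a median fold of 3.50 (3.33 to 3.70). Their background and fold were close to those of the 83 cocaine compact chains that share a base with a saline peak, 13.5 times and 3.93. Both were unlike the 1.09 times and 7.36 of the compact cocaine sites without one. All but 8 of the 85 share bases with cocaine peaks, and the 83 were picked for sharing bases with saline peaks. The 2 sets can thus hold the same places, and their likeness is no separate result. Values of the 2 lists come from separate peak calls, so whether sites changed between treatments cannot be read from them.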
